A study of Homo sapiens with 12 samples.

Results

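The joint effect of a supplied thyroid hormone receptor and its hormone was measured in cells labelled SW1736, the name of a line established from a thyroid carcinoma of the anaplastic kind, by comparing the 3 libraries named TRB_T3 with the 3 named EV_Vehicle, 6 of the 12 RNA sequencing libraries of the series. TRB_T3 cells carried the vector pCDH-TRB, which the labels describe as stable expression of thyroid hormone receptor beta, and received triiodothyronine (T3) at 10 nM for 24 h. EV_Vehicle cells carried the empty vector pCDH-EV and received the sodium hydroxide vehicle for 24 h. All groups had first been starved of hormone for 24 h in medium free of phenol red with charcoal-stripped serum. The other 6 libraries held empty-vector cells with T3 (EV_T3) and receptor cells with vehicle (TRB_Vehicle), and were used for the shared estimate of the spread and to set each factor alone beside both. The labels do not say whether replicates were separate cultures or whether the transduced cells were a pool or a clone, so the p-values below measure only the spread between these libraries.

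Thyroid hormone receptor beta is a nuclear receptor that sits on DNA with or without its ligand, usually paired with a retinoid X receptor. Without T3 it holds corepressors at many of its target genes, and T3 exchanges these for coactivators, while another class of targets is lowered by the hormone-bound receptor. Loss of this receptor is common in thyroid cancers, and anaplastic tumours are those that have lost most thyroid-specific gene activity. The comparison changes receptor and hormone together, so by itself it does not assign a difference to either.

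Counts within genes ranged from 4606508 to 13086717 in the 6 libraries, and 17833 to 22881 genes had a count. TRB_T3 replicate 2 had the fewest such genes, and its level relative to its group moved with the GC content of the genes. Across the 12157 of 14431 tested genes (84.2%) with a known GC content, its log2 level minus the mean of replicates 1 and 3 correlated with GC at a Spearman rho of -0.88, a description across genes. The same measure was -0.35 for replicate 1 minus replicate 3, and in the 9 libraries of the other groups, each against the rest of its group, it ran from -0.83 to 0.80, so a trend with GC was not confined to this library. The median of that difference went from 1.40 in the fifth of genes lowest in GC to -2.66 in the fifth highest in GC, against 0.05 and -0.13 for replicate 1 minus replicate 3. The biological coefficient of variation within TRB_T3 was 0.629, and 0.0576 for replicates 1 and 3 alone, beside 0.0925 in EV_Vehicle. The counts of called genes, the gene lists and most named genes are therefore given from the fit of all 12 libraries and from that of the 11 others. Replicate 2 also had the lowest share of counted alignments that were not unique, 19.0% against 58.9% and 66.6% in replicates 1 and 3.

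Thyroid lineage genes were low in all 12 libraries. TSHR (the thyrotropin receptor) and FOXE1 had no count in any library, TG (thyroglobulin) reached at most 0.625 cpm (counts over library size, the size corrected by edgeR's TMM factor), and PAX8, a transcription factor of thyroid cells, lay between 0.720 and 6.98. Summed over the 16 lineage genes the level was 16.5 to 17.8 cpm in EV_Vehicle and 12.4 to 18.3 in TRB_T3. The epithelial genes EPCAM and KRT8 lay between 317 and 1100.4 cpm and between 386 and 2208 cpm, and VIM, the vimentin gene of mesenchymal cells, reached at most 1.51. These levels do not bear out a thyroid cell type. Since anaplastic tumours have lost most thyroid-specific gene activity, low lineage genes alone cannot decide the origin of the cells. The identity of the line was not tested further. Genes of intestinal epithelium, chosen after their values were seen, were in part well expressed, with LGALS4 at 56.1 to 733 cpm and HNF4A at 23.2 to 126 over the 12 libraries. Others were low or absent. CDX1 had no count in any library, and GPA33, MUC2, CDH17, TFF3 and CDX2 reached at most 0.817, 1.27, 1.72, 3.25 and 3.80 cpm. The 8 endothelial genes summed to at most 0.276 cpm in both groups and CDH5, KDR and ERG had no count in any library, and of the 10 fibroblast genes COL1A1 alone was tested (18.5, 16.9 and 20.4 cpm in EV_Vehicle and 13.7, 1.44 and 14.9 in TRB_T3, adjusted p = 0.409 and 0.272 without replicate 2). Among 12 leukocyte genes the T cell genes CD3D and CD3E had no count, while LYZ (lysozyme) stood at 1267, 1464 and 1345 cpm in EV_Vehicle and 778, 1589 and 781 in TRB_T3.

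With all 12 libraries 1535 of 14431 genes (10.6%) differed between TRB_T3 and EV_Vehicle at an edgeR adjusted p under 0.05, 873 of them higher (6.05%) and 662 lower (4.59%) in TRB_T3. Without TRB_T3 replicate 2 the count was 4997 of 14825 (33.7%), with 2748 higher (18.5%) and 2249 lower (15.2%). Of the 1535 genes, 1534 passed in both fits in the same direction, and 3359 of the genes tested in both passed only in the smaller fit. The 3 libraries of one group did not overlap the 3 of the other in 4157 tested genes (28.8%), and among the 1534 genes called in both fits in 1502. The median absolute log2 fold change of called genes was 1.41 with 12 libraries and 0.82 with 11.

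The calls themselves leaned with GC content. With 12 libraries 101 genes rose and 33 fell in the class lowest in GC, and 52 rose and 62 fell in the highest. Without replicate 2 the lean was the other way, with 155 higher and 519 lower in the lowest class and 657 higher and 204 lower in the highest. Offsets that remove a smooth GC trend from every library gave 3814 calls among 12157 genes with 12 libraries. Of these 38.8% were higher, against 56.9% of the calls among 14431 genes without offsets. With offsets and 11 libraries 6311 of 12334 genes passed (3229 higher, 3082 lower). The median log2 fold change of all genes was -0.13 with offsets and 12 libraries and -0.01 without offsets. The part of this shift in the falls was not tested. A fit of the 6 compared libraries with replicate number as a block called 0 genes in edgeR, with 1474 at an unadjusted p under 0.05, while the same block in the fit of 12 called 1538.

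**Figure D1:**
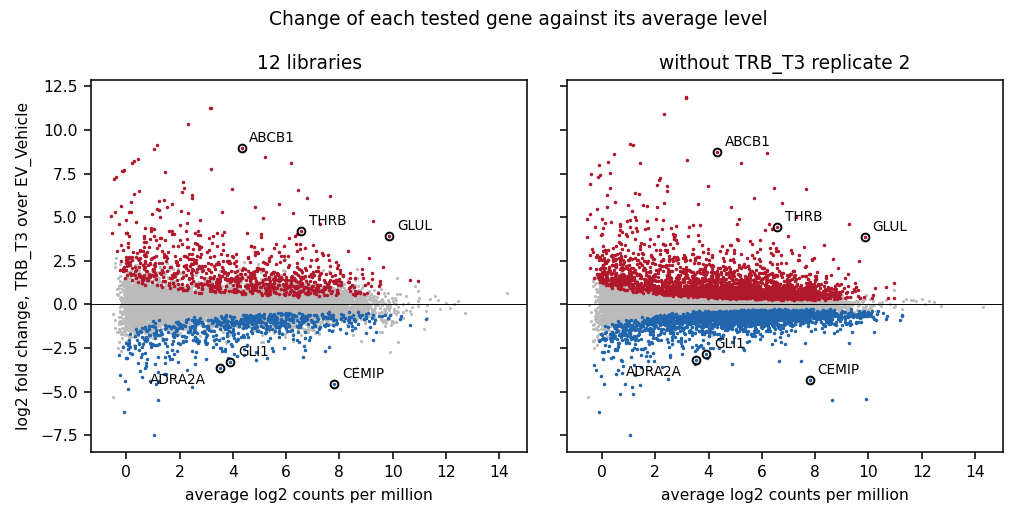
Log2 fold change of TRB_T3 over EV_Vehicle (vertical) against average log2 cpm (horizontal) for the 14431 genes tested with all 12 libraries, fitted with 12 libraries (left) and without TRB_T3 replicate 2 (right). Red and blue points passed the threshold as higher or lower and grey points did not; more of the small changes pass on the right, while the 6 circled genes pass in both.

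**Figure D2:**
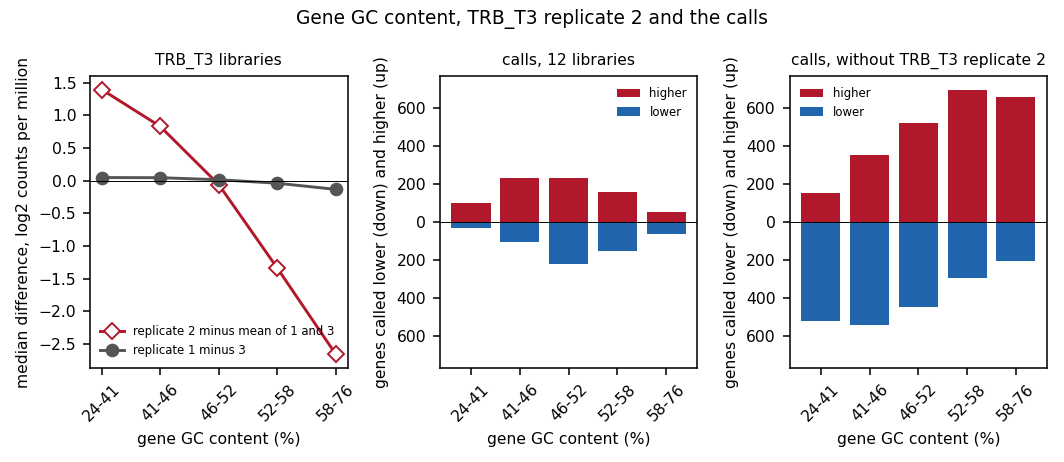
Left, median difference in log2 cpm within TRB_T3 by class of gene GC content (5 classes, ranges in percent), for replicate 2 minus the mean of 1 and 3 (from 1.40 to -2.66) and replicate 1 minus 3. Middle and right, genes called higher (up) and lower (down) in each class with 12 and with 11 libraries; the right panel has more falls at low GC and more rises at high GC.

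THRB, which encodes the supplied receptor (chr3:24117153-24495708 in GRCh38.p14, RefSeq), was read first as a check of the labels. It stood at 13, 15.2 and 15.6 cpm in EV_Vehicle and at 322, 190.3 and 297 in TRB_T3 replicates 1 to 3. The groups did not overlap, and the log2 fold change was 4.20 (SE 0.25, edgeR adjusted p = 4.36e-06), or 4.45 (SE 0.15, adjusted p = 7.73e-10) without replicate 2. TRB_Vehicle libraries lay between, at 80.2, 79.8 and 80.4 cpm. Counts by symbol do not separate vector transcripts from those of the cells' own gene.

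ABCB1, ADRA2A and GLI1 mark the comparison. ABCB1 (chr7:87503017-87713295) encodes the drug efflux pump P-glycoprotein, and it went from 0, 1 and 3 counts in EV_Vehicle to 852, 607 and 516 in TRB_T3. These are 0, 0.0817 and 0.276 cpm against 63.9, 109 and 64.5, so the gene was near 0 in the control and well detected in all libraries with receptor and hormone. The ratio of summed scaled counts was 509 (198 to 1870.1), with a 95% interval for counting error only, and the edgeR adjusted p was 8.57e-06 with 12 libraries and 1.06e-09 with 11.

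ADRA2A (chr10:111077029-111080907), the alpha-2A adrenergic receptor that couples to inhibitory G proteins, stood at 18.5, 15.9 and 16.5 cpm in EV_Vehicle and 1.88, 0.36 and 1.5 in TRB_T3. GLI1 (chr12:57459785-57472268), a transcription factor and target of Hedgehog signalling, stood at 20.8, 19.1 and 20.2 cpm and 2.18, 0.36 and 3.37. In both genes the lowest TRB_T3 library was replicate 2 and no library overlapped. The log2 fold change in edgeR was -3.65 for ADRA2A (SE 0.39, adjusted p = 0.000175) and -3.28 for GLI1 (SE 0.45, adjusted p = 0.000873). Without replicate 2 the values were -3.21 (adjusted p = 9.52e-07) and -2.83 (adjusted p = 2.56e-07). GLI1 did not pass when only the 6 compared libraries were fitted.

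Of the tested genes 1002 passed in both fits, averaged at least 3 on the log2 cpm scale and did not overlap between the groups, and the 12 most positive and 12 most negative of these follow. That their groups do not overlap is therefore part of the choice. The rises were led by genes close to silent in the control. IL32 (an inflammatory cytokine, chr16:3065403-3069530) had no count in the 3 EV_Vehicle libraries and stood at 43, 9.35 and 50.8 cpm in TRB_T3, at least 355-fold higher against 3 counts over the group. IGHE, an immunoglobulin heavy chain gene whose reads may belong to relatives, also had none and stood at 47, 3.42 and 51.1, at least 362-fold higher. In both, replicate 2 was the lowest TRB_T3 library. The edgeR adjusted p was 0.000439 for IL32 and 0.0371 for IGHE, and IGHE missed the threshold when TRB_T3 replicate 1 or 3 or any 1 of the EV_Vehicle libraries was left out, in DESeq2 and with the 6 libraries alone.

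The carboxypeptidase M gene CPM (chr12:68842197-68963469), which encodes a membrane enzyme that trims basic residues from peptides, stood at 0.434, 0.572 and 0.184 cpm in EV_Vehicle and 108, 222 and 104 in TRB_T3. ABCG2 (chr4:88090264-88231626), a drug efflux pump like ABCB1, went from 6.3, 5.07 and 5.24 cpm to 292, 548 and 279. In these 2 genes and in ABCB1 replicate 2 was the highest TRB_T3 library, and all 3 genes have a low GC content (42.1%, 41.2% and 43.1%). The log2 fold change was 8.47 for CPM (SE 0.57, adjusted p = 1.01e-05) and 6.08 for ABCG2 (SE 0.32, adjusted p = 2.47e-06), and 8.08 and 5.78 without replicate 2.

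TP53INP2, which takes part in autophagy, stood at 10.4, 9.4 and 10.2 cpm in EV_Vehicle and 904, 328 and 971 in TRB_T3. C2orf54 stood at 1.3, 0.899 and 0.827 cpm and 348, 72.5 and 395. MYT1, a zinc finger transcription factor of neural cells, stood at 3.69, 3.68 and 3.4 cpm and 239.6, 120.0 and 233. Replicate 2 was the lowest of the 3 TRB_T3 libraries in each of these genes, yet lay above all EV_Vehicle libraries. TFAP2C (an AP-2 family transcription factor) and HEG1 (a membrane protein of cell junctions) stood at 1.95, 2.21 and 2.21 against 95.3, 109.9 and 103 cpm and 2.17, 3.19 and 2.76 against 287, 234 and 256 cpm. Their log2 fold changes were 5.58 (SE 0.27) and 6.55 (SE 0.28). APOL1, an apolipoprotein of the innate immune response, went from 0.567 ± 0.484 cpm (SD, n = 3) to 58.1 ± 7.33. GAS6-AS1, named as antisense to GAS6 and so uncertain without a stated strand setting, went from 0, 0 and 0.368 cpm to 47.4, 8.1 and 47.5. All of these passed in edgeR, with an adjusted p of at most 0.00204 (GAS6-AS1) with 12 libraries and at most 1.95e-07 (GAS6-AS1) with 11.

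**Figure D3:**
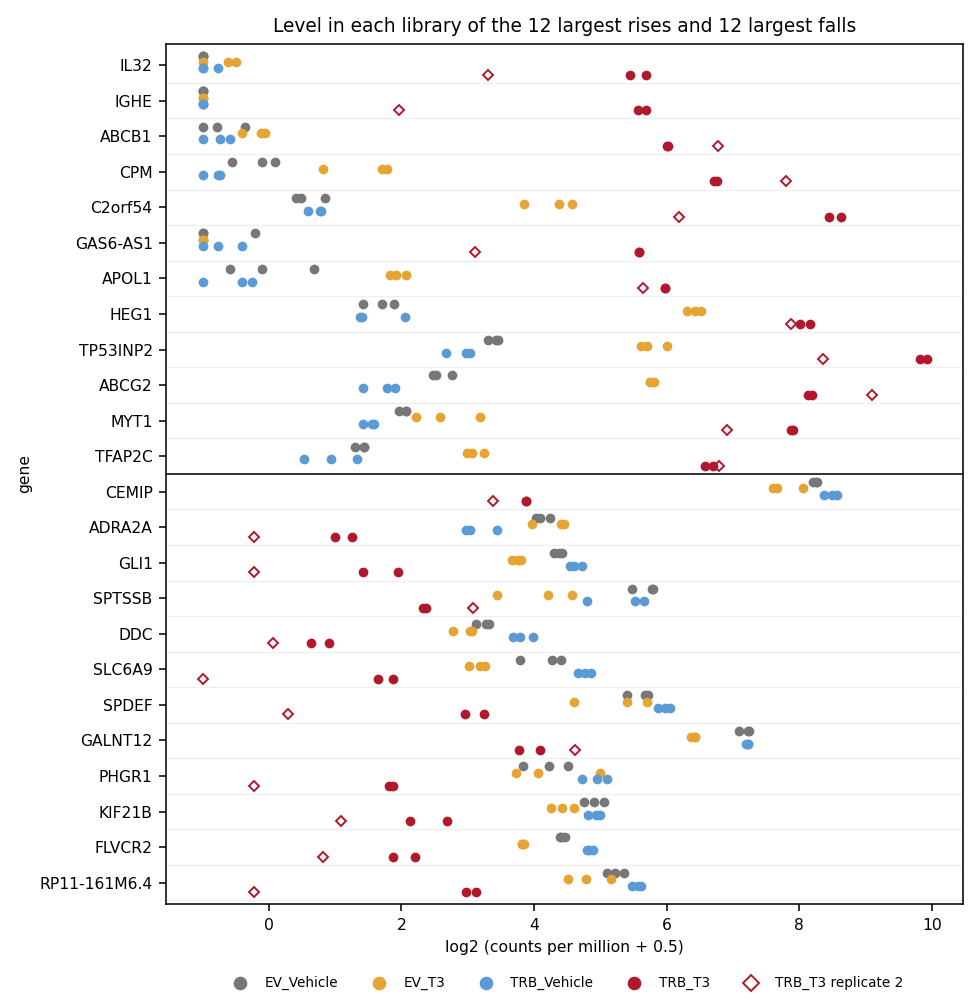
Level of the 12 genes with the most positive (above the line) and the 12 with the most negative (below) log2 fold change, as log2 of cpm plus 0.5 in each library (horizontal), with groups by colour and TRB_T3 replicate 2 as an open diamond. In every row the TRB_T3 libraries lie apart from the EV_Vehicle libraries, which the choice of genes required.

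Among these genes the largest fall was that of CEMIP (chr15:80779370-80951771), which encodes a protein that binds hyaluronan and takes part in its breakdown. It stood at 303, 295 and 308 cpm in EV_Vehicle and 14.2, 9.89 and 14.2 in TRB_T3. All 3 TRB_T3 libraries were far below the control, with a log2 fold change of -4.56 (SE 0.21, edgeR adjusted p = 1.69e-06), or -4.35 (SE 0.15) without replicate 2. GALNT12, a transferase that starts mucin-type O-glycans, stood at 136, 150.3 and 149 cpm against 16.4, 24.1 and 13.1 (log2 fold change -3.03, SE 0.22). SPTSSB, a small subunit of the enzyme that starts sphingolipid synthesis, stood at 43.9, 54.2 and 55.1 cpm against 4.65, 7.92 and 4.5. In these 2 genes replicate 2 was the highest TRB_T3 library and still below every control library.

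DDC, the decarboxylase that makes dopamine and serotonin, stood at 8.25, 9.15 and 9.47 cpm in EV_Vehicle and 1.05, 0.54 and 1.37 in TRB_T3. FLVCR2, a transporter of the facilitator superfamily, stood at 20.4, 20.8 and 21.7 cpm and 3.15, 1.26 and 4.12. KIF21B, a kinesin motor, stood at 32.6, 26.5 and 29.5 cpm and 5.93, 1.62 and 3.87. These 3 fell by 3.12, 2.84 and 2.90 on the log2 scale in edgeR (adjusted p = 5.61e-05, 0.000203 and 0.000386) and by 2.86, 2.49 and 2.48 without replicate 2. SPDEF (an ETS factor of secretory epithelium), SLC6A9 (a glycine transporter), PHGR1 and the non-coding RP11-161M6.4 also fell. In each of these last 4 genes replicate 2 was nearly empty, at 0.72, 0, 0.36 and 0.36 cpm. Replicates 1 and 3 stood at 7.28 and 8.99 cpm for SPDEF, 3.15 and 2.62 for SLC6A9, 3.15 and 3 for PHGR1 and 8.18 and 7.37 for RP11-161M6.4, against control means of 48.2 ± 5.67, 17.6 ± 3.86, 18.1 ± 4.26 and 37 ± 3.25 (SD, n = 3). None of the 4 passed when only the 6 compared libraries were fitted, and RP11-161M6.4 did not pass when any 1 of the EV_Vehicle libraries was left out.

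Ranked by the change in level, the rise was led by GLUL (chr1:182378098-182391790), glutamine synthetase, which stood at 201, 201 and 200.3 cpm in EV_Vehicle and 2809.8, 3445 and 2859 in TRB_T3. Its log2 fold change was 3.92 (SE 0.15, edgeR adjusted p = 9.42e-07), and 3.88 without replicate 2, so this library hardly moved it. MMP7 (matrilysin, a secreted protease) went from 67.3, 75.5 and 77.9 cpm to 1679, 2671 and 1727, with log2 fold changes of 4.78 and 4.59 in the 2 fits. GPRC5A, a retinoic acid-induced membrane receptor, went from 394, 386 and 416 cpm to 2102, 1026 and 2129 (2.14 and 2.47). NEAT1, the RNA that builds paraspeckles, went from 1203, 1375 and 1172 cpm to 2859, 3839 and 2691 (1.32 and 1.21). For the other two of these 6 genes replicate 2 carried much of the rise. TAX1BP1, an autophagy receptor, stood at 684 and 675 cpm in replicates 1 and 3 and 3261 in replicate 2 against 231, 264 and 244 in the control, and its log2 fold change was 2.64 with and 1.52 without that library. ATP1B1, a subunit of the sodium-potassium pump, stood at 2146 and 2340.3 and 4708 cpm against 1138, 1216 and 1105, with 1.41 and 1.02.

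The falls in level were those of abundant transcripts and smaller as ratios. PSAT1, an enzyme of serine synthesis, stood at 812, 912 and 925 cpm in EV_Vehicle and 181, 275 and 177 in TRB_T3 (log2 fold change -2.06, SE 0.19, edgeR adjusted p = 7.97e-05). ENC1, a protein that binds actin, stood at 818, 862 and 837 cpm and 281, 306 and 266 (-1.56, SE 0.13, adjusted p = 4.08e-05). Without replicate 2 the values were -2.24 and -1.56. AHNAK (a large scaffold protein) stood at 1318, 1259 and 1341 cpm against 809.8, 847 and 554, and EEF1A1 (a translation elongation factor) at 2602, 2905 and 3025 against 1708, 1364 and 1733. FTH1 (the heavy chain of ferritin) stood at 2169, 1706 and 1824 against 978, 457 and 1061, and RPL4 (a ribosomal protein) at 1353, 1417 and 1527 against 936, 867 and 907. These 4 passed with an edgeR adjusted p between 0.00522 (EEF1A1) and 0.0162 (FTH1), and none of them passed with the 6 compared libraries alone. AHNAK, FTH1 and RPL4 did not pass when any 1 of the EV_Vehicle libraries was left out, and EEF1A1, FTH1 and RPL4 have close copies in the genome that may share reads.

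Leaving out replicate 2 changed which genes passed. Among the 6 genes of lowest adjusted p in the fit of 11 that missed the threshold with 12 were PPARD, SLC43A2, FLYWCH2, GGT1 and ALPK3, all higher in replicates 1 and 3 than in the control. PPARD, a nuclear receptor of lipid metabolism, stood at 46.3, 39.8 and 42.4 cpm in EV_Vehicle and 208, 22.8 and 235 in TRB_T3. GGT1, an enzyme of glutathione breakdown, stood at 5.86, 4.9 and 4.5 cpm and 31.9, 2.7 and 38.2. In each of these 5 genes but ALPK3 replicate 2 lay below every control library, and in ALPK3 it stood at 97.1 cpm against 107, 93.9 and 103. The choice of genes that pass only without replicate 2 favours such a difference from replicates 1 and 3. Without it their log2 fold changes ran from 1.58 (ALPK3) to 2.88 (GGT1), with an edgeR adjusted p of 4.74e-07 for GGT1. Their GC content ran from 57.4% (ALPK3) to 61.7% (GGT1).

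**Figure D4:**
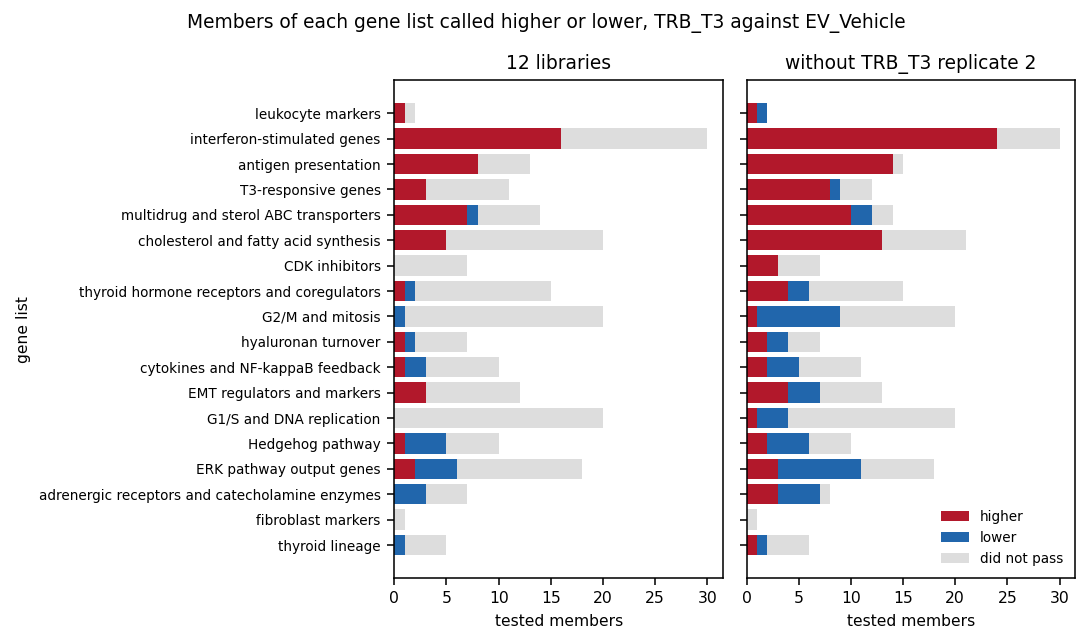
Tested members (horizontal) of 18 gene lists called higher (red), lower (blue) or not called (grey) in TRB_T3 against EV_Vehicle, with 12 libraries (left) and without TRB_T3 replicate 2 (right), ordered by the median log2 fold change of the left fit. The interferon-stimulated and antigen presentation lists have 16 and 8 members higher and none lower on the left, and 24 and 14 higher on the right.

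The lists below are described against the shares of all tested genes called higher (6.05% with 12 libraries, 18.5% with 11) and lower (4.59% and 15.2%), and against a median log2 fold change of -0.01 over all tested genes in each fit. List counts with GC offsets stand against the fits with offsets instead. These called 1481 of 12157 genes higher and 2333 lower with 12 libraries (median -0.13). With 11 they called 3229 of 12334 higher and 3082 lower (median -0.0027). Among 15 tested thyroid hormone receptor and coregulator genes, THRB rose and TBL1X fell with 12 libraries, and 4 rose and 2 fell with 11 (median 0.02 and 0.03). TBL1X, a subunit of the corepressor complex that unliganded receptors hold, stood at 127, 118 and 124 cpm in EV_Vehicle and 28.1, 25.5 and 29.5 in TRB_T3 (log2 fold change -2.15, SE 0.14, edgeR adjusted p = 8.85e-06). No library overlapped, and replicate 2 lay with the other TRB_T3 libraries. CREBBP, a coactivator, stood at 153 and 141 cpm in replicates 1 and 3 and 94.6 in replicate 2 against 128, 102 and 105. Of these 2 fits it passed as higher only in that without replicate 2 (0.46, adjusted p = 0.0142), as did the coactivator EP300 (0.44). THRA, the other thyroid hormone receptor gene, fell in that fit (-0.39, adjusted p = 0.0384) and did not pass with 12 libraries (adjusted p = 0.273).

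Of 11 tested genes known to respond to T3, 3 rose and none fell with 12 libraries (median 0.81), and of 12 tested with 11 libraries 8 rose and 1 fell (median 1.07). KLF9, a zinc finger factor with a classical hormone response, stood at 14.6, 14.5 and 13.1 cpm in EV_Vehicle and 104, 257 and 105 in TRB_T3 (log2 fold change 3.47, and 2.97 without replicate 2). ATP2A2, the calcium pump of the endoplasmic reticulum, stood at 509.7, 567 and 549 cpm and 1221, 1262 and 1215 (1.19, edgeR adjusted p = 0.000176). FURIN, a protease that processes proproteins, passed with 12 libraries (adjusted p = 0.0408) although its replicate 2, at 35.1 cpm, lay below the control libraries (58.6, 54.7 and 59.6) and its replicates 1 and 3 at 460.2 and 496. Leaving out any 1 of the libraries other than TRB_T3 replicate 2 ended this call. DIO3, the deiodinase that inactivates T3, was, of the 2 fits, tested only in that of 11. It had 1 count in each EV_Vehicle library and 51, 1 and 43 counts in TRB_T3, a pooled ratio of 32.6 (10.8 to 161) with its 95% counting interval (adjusted p = 2.83e-06), and it did not pass when EV_Vehicle replicate 2 or 3 was left out in place of TRB_T3 replicate 2. DIO3 entered the fit of 11 through TRB_T3 replicates 1 and 3, so the direction of its change was set by the filter on low counts. BCL3, a coregulator of NF-kappaB, rose without replicate 2 (1.39, adjusted p = 0.000475). The 1 fall was CPT1A, which carries fatty acids into mitochondria (-0.35, adjusted p = 0.0158).

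Among 14 multidrug and sterol transporters of the ABC family 7 rose and 1 fell with 12 libraries (median 0.65), and 10 rose and 2 fell with 11 (median 0.96). Beside ABCB1 and ABCG2, the phospholipid transporter ABCB4 stood at 2.39, 1.39 and 1.29 cpm in EV_Vehicle and 7.43, 10.8 and 8.24 in TRB_T3, with a log2 fold change of 2.45 (SE 0.29, edgeR adjusted p = 0.000334). ABCC2, which exports conjugates, stood at 0.869, 1.23 and 0.827 cpm and 5.18, 5.4 and 3.87 (2.26, adjusted p = 0.00279). ABCC6 stood at 2.61, 3.27 and 2.94 cpm and 16.6, 4.68 and 16.7 (2.10, adjusted p = 0.0102). No library of one group overlapped the other in these 3 genes, although ABCC6 in replicate 2 came closest to the control, and ABCC6 did not pass without EV_Vehicle replicate 3. The fall in both fits was ABCG1, a sterol exporter (-1.50 and -1.14), joined without replicate 2 by its relative ABCA1 (-0.57).

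Of 10 tested Hedgehog pathway genes 1 rose and 4 fell with 12 libraries (median -0.28), and 2 rose and 4 fell with 11, where the median was 0.10. CDON, a coreceptor for the ligands, rose from 9.77, 14.1 and 13.4 cpm in EV_Vehicle to 46.1, 36.7 and 43.1 in TRB_T3 (log2 fold change 1.75, edgeR adjusted p = 0.000439). GLI2, a transcription factor of the pathway, stood at 53.9, 38.5 and 40.9 cpm and 25.4, 8.63 and 21.9 (-1.24, adjusted p = 0.0355), and it passed with 1 library left out only without TRB_T3 replicate 1 or 2. The ligand gene IHH had 14, 27 and 21 counts in EV_Vehicle and 8, 0 and 0 in TRB_T3 (-3.00, adjusted p = 0.0154). It did not pass without EV_Vehicle replicate 1 or 2, and its log2 fold change was -7.30 without TRB_T3 replicate 1. SHH, another ligand gene, was the remaining fall (-0.62 and -0.60 in the 2 fits). GLI3, the main repressor of the pathway, stood at 2.61, 2.62 and 2.48 cpm and 3.45, 3.78 and 5.62 and passed without replicate 2 (adjusted p = 0.154 and 0.0471).

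Among 7 tested adrenergic receptor and catecholamine enzyme genes none rose and 3 fell with 12 libraries (median -0.77), namely ADRA2A, DDC and MAOA. With 11 libraries 8 were tested, of which 3 rose and 4 fell (median -0.48). MAOA, a monoamine oxidase, stood at 58.4, 65.4 and 70.1 cpm in EV_Vehicle and 26.9, 31.7 and 23.9 in TRB_T3 (log2 fold change -1.24, SE 0.16, edgeR adjusted p = 0.000669). ADRA2C, another alpha-2 receptor, had 0, 0 and 2 counts in EV_Vehicle and 80, 2 and 71 in TRB_T3. Its pooled ratio was 78.9 (21.5 to 657) with a 95% counting interval, and it passed in the fit of 11, which alone tested it (adjusted p = 1.67e-06). ADRA2C entered that fit through TRB_T3 replicates 1 and 3, so the direction of its change was set by the filter on low counts. ADRA2B, at 1.3, 0.327 and 0.368 cpm and 1.35, 0 and 1.62, overlapped between the groups and passed without replicate 2 (adjusted p = 0.039), as did the beta receptor gene ADRB1, which fell (-1.06).

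Interferon-stimulated genes and genes of antigen presentation by class I molecules were the lists with the largest share of members called higher. Of 30 tested interferon-stimulated genes 16 rose and none fell with 12 libraries (median 1.51), and 24 rose and none fell with 11 (median 1.56). Of 13 tested antigen presentation genes 8 rose and none fell with 12 (median 1.46), and 14 of 15 rose with 11 (median 2.08). With GC offsets 22 of the interferon-stimulated genes rose and 1 fell with 12 libraries, and 26 rose and 1 fell with 11. Over all genes 1481 of 12157 and 3229 of 12334 rose in these fits with offsets. Interferon binding to its receptors activates STAT and IRF factors, which bind the interferon-stimulated response element, whose core is a pair of GAAA runs with 2 bases of any kind between. Promoter windows of 250 bases before to 50 after the start site (RefSeq, GRCh38.p14) were searched for that core on both strands. It was in 27 of 40 windows (67.5%) of interferon-stimulated genes, from 23 of the 32 genes with a window, and in 9 of 17 windows (52.9%) of antigen presentation genes, against 3.57% of all 35116 windows. Of the 23 genes 14 were tested, and 10 rose with 12 libraries and 13 with 11. Of the 9 genes without the core 7 were tested with 11 libraries, and 5 rose. The list was made of genes known to answer interferon, so a high share of windows with the core belongs to that choice. It describes the list and not these libraries, and a part of interferon signalling was not tested.

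Windows of 3 genes that rose show the core in capitals, written 5′ to 3′ on the strand of the gene. They are IFIT3 (chr10:89327747-89328046, plus strand, first match at bases 95 to 104 of the window and 2 matches in all), TAP2 (chr6:32838690-32838989, minus strand, bases 193 to 202) and ERAP2 (chr5:96876250-96876549, plus strand, bases 221 to 230). In IFIT3 the match is read on the opposite strand, so it appears as its reverse complement.
IFIT3: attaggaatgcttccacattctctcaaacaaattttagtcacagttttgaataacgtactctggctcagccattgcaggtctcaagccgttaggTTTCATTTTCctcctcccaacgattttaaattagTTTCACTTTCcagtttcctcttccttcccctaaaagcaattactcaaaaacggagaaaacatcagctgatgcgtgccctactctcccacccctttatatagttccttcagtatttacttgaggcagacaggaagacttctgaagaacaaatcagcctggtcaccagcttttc
TAP2: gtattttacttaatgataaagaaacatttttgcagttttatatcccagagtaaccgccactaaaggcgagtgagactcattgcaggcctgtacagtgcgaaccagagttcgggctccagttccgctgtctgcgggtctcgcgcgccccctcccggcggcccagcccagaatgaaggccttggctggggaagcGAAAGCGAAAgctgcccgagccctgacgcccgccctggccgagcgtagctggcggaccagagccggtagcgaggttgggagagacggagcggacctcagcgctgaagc
ERAP2: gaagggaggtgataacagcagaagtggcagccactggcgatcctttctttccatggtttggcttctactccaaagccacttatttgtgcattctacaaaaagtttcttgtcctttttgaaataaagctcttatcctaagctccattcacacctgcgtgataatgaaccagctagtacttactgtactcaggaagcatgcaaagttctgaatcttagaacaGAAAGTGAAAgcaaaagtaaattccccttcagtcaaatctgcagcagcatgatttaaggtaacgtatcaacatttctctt

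IFIT3, an interferon-induced protein that limits viral RNA, had 2, 3 and 1 counts in EV_Vehicle and 90, 59 and 46 in TRB_T3. Its neighbour and relative IFIT2 had 0, 3 and 2 counts against 76, 73 and 48. The pooled ratios were 33.5 (15.1 to 92.4) and 40.6 (17.1 to 126) with their 95% counting intervals (edgeR adjusted p = 7.76e-05 and 0.000388), and all 3 TRB_T3 libraries lay above the control in both. MX2, an antiviral GTPase, had no count in EV_Vehicle and 48, 21 and 31 counts in TRB_T3, at least 34.4-fold higher against 3 counts over the group (adjusted p = 0.00056). CXCL11, a chemokine, had 1, 0 and 0 counts against 43, 48 and 18, a pooled ratio of 112 (19.7 to 4479) (adjusted p = 0.00469). IRF1, a transcription factor of the response, stood at 15, 11.3 and 12.8 cpm against 153, 57.6 and 157. It passed in both fits (3.24 on the log2 scale, adjusted p = 0.000182 with 12), with replicate 2 the lowest of the TRB_T3 libraries.

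ERAP2, a peptidase that trims antigens, stood at 22.8, 24.6 and 23.4 cpm in EV_Vehicle and 198, 422 and 178 in TRB_T3. TAP2, a subunit of the peptide pump into the endoplasmic reticulum, stood at 6.52, 5.31 and 6.16 cpm and 40.2, 51.4 and 40.2. Their log2 fold changes were 3.49 (SE 0.33, edgeR adjusted p = 9.37e-05) and 2.88 (SE 0.20, adjusted p = 1.3e-05), and replicate 2 was the highest TRB_T3 library in both. The immunoproteasome subunit PSMB8 stood at 2.61, 2.37 and 1.38 cpm against 17.5, 6.84 and 18.7 (2.80, adjusted p = 0.00195). PSMB10, another such subunit, stood at 2.82, 0.572 and 2.11 cpm against 22.2, 0.899 and 22.6, and its replicate 2 lay within the control range. Its call was lost when any 1 of the libraries other than TRB_T3 replicate 2 was left out. PSMB9, the remaining one, had no count in EV_Vehicle and 71, 1 and 36 in TRB_T3, at least 37.1-fold higher against 3 counts over the group. Of the 2 fits only that of 11 tested it (adjusted p = 3.42e-05), and it did not pass when EV_Vehicle replicate 2 or 3 was left out in place of TRB_T3 replicate 2. PSMB9 passed the filter of that fit through TRB_T3 replicates 1 and 3, so the direction of its change was set by the filter.

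Of 20 tested cholesterol and fatty acid synthesis genes 5 rose and none fell with 12 libraries (median 0.59), and 13 of 21 rose and none fell with 11 (median 0.63). SCD, the desaturase that makes monounsaturated fatty acids, stood at 259, 239 and 253 cpm in EV_Vehicle and 1046, 1062 and 992 in TRB_T3 (log2 fold change 2.05, SE 0.13, edgeR adjusted p = 6.53e-06). INSIG1, a sterol sensor, stood at 27.1, 28.4 and 28.5 cpm and 65.1, 114 and 68, and ELOVL6, a fatty acid elongase, at 61.7, 70.1 and 65.6 and 132, 316 and 128 (1.55 and 1.54). In these last 2 genes replicate 2 was well above replicates 1 and 3. ACACA, which makes malonyl-CoA, rose as well (0.68). FADS1, a desaturase, stood at 0.434, 0.572 and 1.19 cpm and 1.95, 1.98 and 1.62 (edgeR adjusted p = 0.0479), and with 1 library left out it passed only without TRB_T3 replicate 2 or EV_Vehicle replicate 3. SREBF1, a transcription factor of lipid synthesis, stood at 102 and 117 cpm in replicates 1 and 3 and at 6.84 in replicate 2, against 33.4, 23.9 and 39.2 in the control. It passed without replicate 2 (adjusted p = 6.04e-05).

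The 18 output genes of the ERK pathway, which are switched on by growth factor signalling and many of which damp it, held 2 rises and 4 falls with 12 libraries (median -0.55) and 3 rises and 8 falls with 11 (median -0.23). SPRY2 stood at 18.7, 17.2 and 20.8 cpm in EV_Vehicle and 8.48, 6.84 and 10.4 in TRB_T3, and SPRY4 at 160.3, 137 and 129.7 and 83.7, 45.7 and 82.4. Both are inhibitors of receptor tyrosine kinase signalling, and they fell by 1.13 and 1.01 on the log2 scale (edgeR adjusted p = 0.00402 and 0.0141). The ERK phosphatase DUSP6 stood at 128, 123 and 109 cpm and 59.6, 85.1 and 71.1 and fell (-0.74, adjusted p = 0.02), while its relative DUSP4 rose from 94.7, 82 and 92.8 to 169, 151 and 174 (0.87, adjusted p = 0.00422). SPRY4 did not pass when any 1 of the EV_Vehicle libraries was left out, nor DUSP6 without TRB_T3 replicate 1 or EV_Vehicle replicate 1 or 2. CCND1, cyclin D1, was the other rise (0.70) and SPRY1 the remaining fall (-0.59). ETV1 and SPRED1 fell without replicate 2 (-1.01 and -0.88), which lay above the control in both. With GC offsets 2 rose and 12 fell with 12 libraries, in a fit where 2333 of all 12157 genes fell.

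No gene of the 20 of the G1 to S transition and DNA replication passed with 12 libraries (median -0.23), and 1 rose and 3 fell with 11 (median -0.08). With GC offsets 1 rose and 5 fell with 12 libraries, and 1 rose and 9 fell with 11. Over all genes 2333 of 12157 and 3082 of 12334 fell in these fits with offsets. CCNE1 (cyclin E1) rose, and MCM6 (a replicative helicase subunit), TYMS (thymidylate synthase) and PCNA (the sliding clamp) fell, with log2 fold changes of 0.60, -0.49, -0.41 and -0.34. Of 20 genes of the G2 to M transition and mitosis 1 fell with 12 libraries (median -0.01), and 1 rose and 8 fell with 11 (median -0.40). With GC offsets none rose and 8 fell with 12 libraries (median -0.38), and 1 rose and 12 fell with 11 (median -0.29). The medians of all genes in these fits were -0.13 and -0.0027. The 1 fall without offsets was KIF20A, a mitotic kinesin, at 69.1, 70.4 and 63.9 cpm in EV_Vehicle and 46.5, 34.2 and 46.3 in TRB_T3 (edgeR adjusted p = 0.026), a call that was lost when any 1 of the libraries other than TRB_T3 replicate 2 was left out. The direction of several of these genes differed between the fits with and without replicate 2. TOP2A, the topoisomerase of dividing cells, stood at 469 and 418 cpm in replicates 1 and 3 and 1827 in replicate 2 against 607, 732 and 680.1 in the control. CENPF, a kinetochore protein, stood at 300.1 and 239 and 1071 cpm against 394, 420.4 and 385. Their log2 fold change was 0.43 and 0.42 with replicate 2 and -0.54 and -0.51 without it. BUB1B, a spindle checkpoint kinase, went from 0.01 to -0.50 and PCNA from 0.03 to -0.34 in the same way. With GC offsets TOP2A, CENPF, BUB1B and PCNA had negative values in the fit of 12 libraries as well, where the median of all genes was -0.13. AURKB, another mitotic kinase, stood at 84.4 and 78.4 and 11.7 cpm against 50.6, 50.5 and 51.9 and rose without replicate 2 (0.74, adjusted p = 0.000846).

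Among 7 CDK inhibitor genes none passed with 12 libraries (median 0.30) and 3 rose with 11 (median 0.58). CDKN1A, which encodes p21, stood at 17.6, 12.3 and 14.2 cpm in EV_Vehicle and 42.3, 7.56 and 49.3 in TRB_T3, with replicate 2 below the control and the others above it (log2 fold change 1.73 without replicate 2, adjusted p = 1.32e-05). CDKN1C and CDKN2C rose by 0.84 and 0.58 in that fit. With GC offsets and 11 libraries 1 rose and 1 fell.

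Of 12 tested genes of the epithelial to mesenchymal transition 3 rose and none fell with 12 libraries (median -0.14), and 4 of 13 rose and 3 fell with 11 (median 0.02). FN1, fibronectin, stood at 14.1, 16.5 and 13.6 cpm in EV_Vehicle and 303, 147 and 275 in TRB_T3 (log2 fold change 4.03, SE 0.27, edgeR adjusted p = 9.77e-06). ZEB1, a repressor of epithelial genes, stood at 0.652, 0.817 and 0.46 cpm and 2.85, 4.86 and 2.62 (2.36, adjusted p = 0.00173), and CDH1, the epithelial cadherin, at 156, 155 and 148 and 236, 189.8 and 242 (0.54, adjusted p = 0.0323). CDH1 did not pass with GC offsets, with the replicate block, or without any 1 of the EV_Vehicle libraries, TRB_T3 replicates 1 and 3 and TRB_Vehicle replicates 2 and 3. ITGB4, an integrin of epithelial anchorage, stood at 443 and 482 cpm in replicates 1 and 3 and 22.8 in replicate 2 against 1558, 1241 and 1492 in the control. It fell without replicate 2 (-1.57, adjusted p = 2.82e-05) and did not pass with it (adjusted p = 0.0979). KRT19, a keratin, rose and OCLN, a tight junction protein, fell in that fit (0.47 and -0.47). VIM had 4, 12 and 15 counts in EV_Vehicle and 0, 6 and 2 in TRB_T3, where replicate 2 lay within the control range. Of the 2 fits only that of 11 tested it, with a log2 fold change of -3.32 (adjusted p = 0.0135). Of the 16 alternatives that tested it 10 did not call it, and without TRB_T3 replicate 1 its value was -0.79.

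Among 7 tested genes of hyaluronan turnover 1 rose and 1 fell with 12 libraries (median -0.01), and 2 rose and 2 fell with 11 (median -0.31). Beside CEMIP, the cell surface hyaluronidase gene TMEM2 rose from 255, 275 and 262 cpm in EV_Vehicle to 453, 492 and 425 in TRB_T3 (log2 fold change 0.79, edgeR adjusted p = 0.00302). The synthase HAS3 and the receptor CD44 passed without replicate 2 (0.90 and -0.64). Of 10 tested cytokine and NF-kappaB feedback genes 1 rose, IL32, and 2 fell with 12 libraries (median -0.11), and 2 of 11 rose and 3 fell with 11 (median 0.08). IL1A, an early inflammatory cytokine, had 8, 18 and 22 counts in EV_Vehicle and 1 in each TRB_T3 library, a pooled ratio of 0.0644 (0.0128 to 0.2) with its 95% counting interval (adjusted p = 0.00239). The neutrophil chemokine CXCL1 stood at 4.56, 3.76 and 4.69 cpm and 1.5, 1.08 and 0.874 (-1.85, adjusted p = 0.00108), and its relative CXCL8 at 8.9, 14.4 and 11.3 and 2.03, 8.1 and 3.37 (adjusted p = 0.0544, and 6.01e-05 without replicate 2). TNFAIP3, an inhibitor of NF-kappaB, rose without replicate 2 (0.75).

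Of 5 tested thyroid lineage genes none rose and 1 fell with 12 libraries (median -0.89), and of 6 tested with 11 libraries 1 rose and 1 fell (median -0.59). Of these 6 genes 2 had at most 3 counts in every library of a compared group. With these held at that floor the median was -0.41. GLIS3, a zinc finger factor of thyroid cells, rose without replicate 2 (0.74, adjusted p = 0.00312). The leukocyte list had 2 tested genes. CD14, an endotoxin coreceptor of myeloid cells, stood at 0.217, 0.409 and 0.643 cpm in EV_Vehicle and 9.23, 0.18 and 9.74 in TRB_T3. It rose in both fits (edgeR adjusted p = 0.0237 and 1.02e-06), with replicate 2 not above the control libraries. In TRB_T3 replicate 2 and EV_Vehicle replicate 1 it lay under 3 counts, which are 0.540 and 0.652 cpm there. The order of these 2 libraries is therefore not resolved. CD14 did not pass without TRB_T3 replicate 1 or 3 or any 1 of the EV_Vehicle libraries. LYZ fell without replicate 2 (-0.74, adjusted p = 0.000806). Summed over the 12 leukocyte genes the level was 1268 to 1465 cpm in EV_Vehicle and 788 to 1589 in TRB_T3, nearly all of it from LYZ. Of these genes 6 had no count in any library. Any part of them in the interferon and cytokine results was not tested. In bulk RNA a change in the number of cells of a type and a change in RNA per cell cannot be told apart.

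How the joint change of each named gene stood to the changes with one factor alone was read from the fit without TRB_T3 replicate 2, where 11 genes (0.0742%) passed for receptor in vehicle and 1087 (7.33%) for hormone in empty-vector cells. These contrasts share the EV_Vehicle libraries with the joint one, so their values are set side by side. EV_T3, which enters hormone alone and the interaction, had a biological coefficient of variation of 0.219 against 0.0925 in EV_Vehicle. Its replicate 3 had 3819306 counts within genes, with 92.0% of counted alignments not unique. ABCG2 gave a log2 fold change of -0.95 with receptor alone, 3.32 with hormone alone and 5.78 with both. MYT1 gave -0.57, 0.70 and 6.11. TP53INP2 gave -0.50, 2.44 and 6.62. In these rising genes the joint change was thus above either single one. HEG1 gave 4.92 with hormone alone and 6.65 with both, and KLF9 gave 3.42 and 2.97, so that in KLF9 the joint value was not above that of hormone alone. EV_T3 libraries stood at 85.8, 90.7 and 78.7 cpm for HEG1 and 155, 169 and 123 for KLF9.

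The same was read for the falls. CEMIP gave 0.25 with receptor alone, -0.46 with hormone alone and -4.35 with both. ADRA2A gave -0.97, 0.16 and -3.21, and GLI1 0.29, -0.63 and -2.83. In CEMIP and GLI1 TRB_Vehicle libraries lay above every EV_Vehicle library, at 379, 330.3 and 359.6 and 22.7, 23.8 and 26 cpm, and ADRA2A was lower there, at 7.32, 10.3 and 7.72 cpm. DDC, at 12.4, 15.3 and 13.3 cpm in TRB_Vehicle, likewise lay above the control with receptor alone (0.61) and fell with both (-2.86). The share of all genes without overlap between TRB_Vehicle and EV_Vehicle was not counted. As only 11 of 14825 genes passed for receptor alone, these small differences are given as values only.

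Whether the joint change differed from the sum of the single ones was tested as the interaction of vector and treatment. It passed in 374 of 14431 genes (2.59%) with 12 libraries and 2259 of 14825 (15.2%) with 11. Among the 37 genes named from the largest changes it passed in 23 with 12 libraries and in 34 with 11. These genes were chosen for a large joint change, which enters the interaction, so the 2 counts and their directions describe the choice and cannot be read against the share of all genes. GLUL departed from the sum by 3.50 (SE 0.20, edgeR adjusted p = 4.6e-05), CEMIP by -4.34 (SE 0.27, adjusted p = 5.16e-05) and MYT1 by 5.63 (SE 0.46, adjusted p = 0.000305). NEAT1 did not pass in either fit (0.46, adjusted p = 0.311, and 0.33, adjusted p = 0.219), nor did the T3-responsive KLF9 (0.64, adjusted p = 0.406, and 0.10, adjusted p = 0.785).

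**Figure D5:**
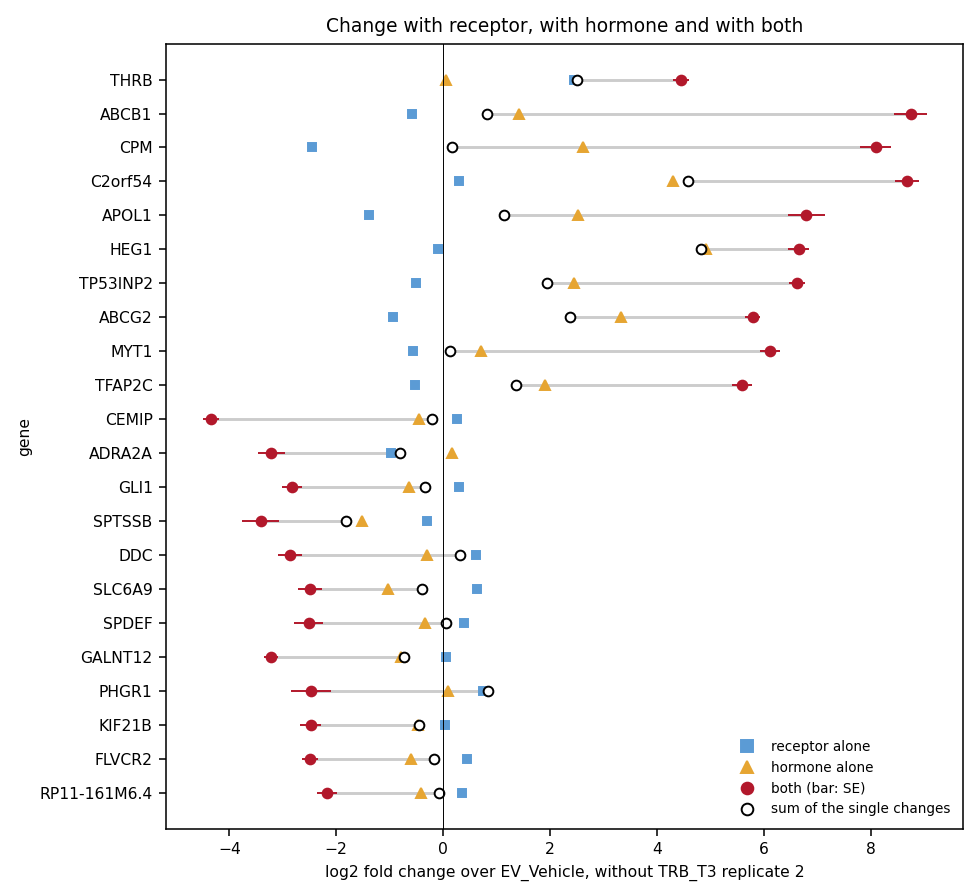
Log2 fold change over EV_Vehicle (horizontal) of THRB and 21 genes with the largest joint changes, in the fit without TRB_T3 replicate 2, for receptor alone (square), hormone alone (triangle), the sum of these (open circle) and both together (red circle, bar for the SE). The grey line is the distance from the sum to the joint change, and the red circle lies farther from 0 than the open circle in each row, which the choice of genes by their joint change favours.

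The AGGTCA half-site of nuclear receptors, searched on both strands of the same promoter windows, was in 4 of 38 windows (10.5%) of the 37 genes, those of CPM, ABCG2, DDC and FLVCR2, against 13.8% of all windows. Of the 37 genes 24 had a window. A direct repeat of AGGTCA with 4 bases of any kind between was in 0 of the 38 windows and 0.0199% of all. The window of ABCG2 (chr4:88158590-88158889, minus strand) is shown with the match in capitals at bases 101 to 106, as the reverse complement of the half-site.
ABCG2: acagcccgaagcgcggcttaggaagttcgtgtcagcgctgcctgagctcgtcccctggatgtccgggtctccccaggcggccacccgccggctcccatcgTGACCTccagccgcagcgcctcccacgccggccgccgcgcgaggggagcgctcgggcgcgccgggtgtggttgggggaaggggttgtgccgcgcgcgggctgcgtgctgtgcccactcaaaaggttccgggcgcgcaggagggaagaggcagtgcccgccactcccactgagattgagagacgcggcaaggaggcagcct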

How the data were processed

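RNA of 12 SW1736 libraries was sequenced, and the whole-number counts per gene that the authors deposited, 1 file per library, were used as they stand. The submitters' processing notes name CASAVA 1.7, STAR 2.7, HTSeq 0.10, DESeq2 and the hg38 build, with no role. Strand setting and annotation were not given in the sources used here. Lines that name no gene stayed out: reads not uniquely aligned made up 19.0% to 66.6% of the counted lines in the 6 compared libraries, and reads outside genes 8.12% to 24.4%. A table of the whole series was not used.

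Groups came from the labels. Genes were kept by filterByExpr (minimum count 10, minimum total 15), scaled with TMM factors (trimmed mean of M-values) and fitted with edgeR 4.0.16 quasi-likelihood in R 4.3.3 over all 12 libraries, with a Benjamini-Hochberg adjusted p under 0.05 as the threshold, and again without TRB_T3 replicate 2. The filter asks for enough counts in as many libraries as the smallest group holds. Leaving out 1 library therefore admits genes counted in fewer libraries. limma 3.58.1 (voom) and DESeq2 1.42.0 served as alternatives, beside other scalings and filters, each library left out, GC offsets (a spline with 5 df) and a replicate block. The test was tried on simulated counts. Intervals are at 95% and, like floors of 3 counts, cover counting error only. Deviations from the group mean in same-numbered EV_Vehicle and TRB_T3 libraries correlated at r = 0.28, 0.50 and 0.16 for numbers 1 to 3. Over all same-numbered pairs of the 12 libraries r ran from -0.19 to 0.73. Pairs of unlike number were not computed, so these values cannot show a pairing. The replicate block rests on the numbers in the labels alone.

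Genes were named by rule: THRB and the 3 markers; 12 rises, 12 falls and, by change in level, 6 of each, from genes passing both fits at an average log2 level of at least 3 with no overlap between the groups; up to 4 called members by size in each of 19 lists per fit; and 6 genes that passed only without replicate 2. Further list members were named after their values were seen, to complete small counts. A few genes that the rule names are not reported here; they stay in the fits and counts. Members and lists were chosen with earlier results of these data known. GC content came from the longest GENCODE transcript of each symbol, and coordinates and promoters from RefSeq.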

Additional observations from a re-analysis of the deposited data

Results flagged for a closer look

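In the fit of all 12 libraries 23 of the 37 genes named by size of change differed between the hormone effect in receptor cells and that in empty-vector cells, by an edgeR test of the interaction, given here as log2 values with the adjusted p. The genes were chosen for a large joint change, which enters this test, so their number is a description.

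Of the marker genes, THRB gave 1.72 (0.0187), ABCB1 8.18 (0.00987), GLI1 -2.91 (0.0281) and ADRA2A -2.81 (0.0169). THRB, whose transcript the vector supplies, thus had a higher level with hormone in receptor cells than the single changes add up to. The effect of hormone was more positive with the receptor in CPM at 8.37 (0.00215), C2orf54 at 3.59 (0.048), APOL1 at 5.53 (0.01) and HEG1 at 1.68 (0.0257). The same held for TP53INP2 at 4.28 (0.00206), ABCG2 at 3.77 (0.00133), MYT1 at 5.63 (0.000305) and TFAP2C at 4.21 (0.000305). Among the genes with large changes in level it held for GLUL at 3.50 (4.6e-05), MMP7 at 3.64 (0.000295) and GPRC5A at 1.57 (0.039).

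It was more negative with the receptor in CEMIP at -4.34 (5.16e-05), DDC at -3.42 (0.00133), GALNT12 at -2.28 (0.00285) and PHGR1 at -3.84 (0.022). KIF21B gave -2.42 (0.0233), FLVCR2 -2.65 (0.00879), AHNAK -1.17 (0.0403) and ENC1 -1.25 (0.00516).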

How the results depend on the processing

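The 1535 calls (873 higher, 662 lower) lay between 875 and 4997 with 1 library left out, the higher ones between 574 and 2748, the lower ones between 301 and 2249, and the 374 interaction calls between 136 and 2259. The top of each range was reached without TRB_T3 replicate 2. The count was lowest without EV_Vehicle replicate 3 (875), and 907 and 955 without EV_Vehicle replicates 2 and 1. With only the 6 compared libraries 385 passed (298 higher, 87 lower), and 7064 (3565, 3499) without replicate 2. No filter gave 1191 calls and 238 for the interaction, and the DESeq2 test 2210 (1388 higher) and 1022. GC offsets gave 3814 (1481, 2333) and 1385, with the replicate block 3660 (1363, 2297) and 1283, and without replicate 2 6311 (3229, 3082) and 4174. In the 6 libraries they gave 1930 calls. The replicate block alone gave 1538, in the 6 libraries 0 in edgeR (1474 at an unadjusted p under 0.05), and without replicate 2 4710 (2596, 2114) and 3274. Without replicate 2, total library size gave 5075 (2560, 2515) and 2377, and DESeq2 size factors 5049 (2760, 2289) and 2304. The fit of the 6 with the block or GC offsets and the last 3 fits without replicate 2 were chosen after seeing the data. The median of all genes was -0.13 with GC offsets and -0.14 with voom.

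Of the 37 genes named by size of change, 25 kept their call in each of the 30 alternatives that tested them (1085 values over the 37) and 12 lost it in at least 1, none changing sign. The 12 were AHNAK, ATP1B1, EEF1A1, FTH1, GLI1, IGHE, PHGR1, RP11-161M6.4, RPL4, SLC6A9, SPDEF and TAX1BP1, and all 12 missed the threshold with only the 6 libraries. The 0 calls of the block in the 6 take in all 37. Of 39 called list members outside these, 20 kept their call in the same alternatives. Those lost most often were KIF20A, FADS1 and FURIN (16 alternatives each) and PSMB10, GLI2 and CDH1 (15 each), the block in the 6 included.

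The list members whose sign turned had not passed with 12 libraries. Log2 values for PCNA, TOP2A, CENPF and BUB1B, in that order, were -0.34, -0.54, -0.51 and -0.50 without replicate 2, -0.34, -0.54, -0.51 and -0.50 in only the compared libraries without it, -0.27, -0.24, -0.21 and -0.40 with GC offsets, -0.26, -0.28, -0.31 and -0.37 with these and without replicate 2, -0.27, -0.24, -0.22 and -0.40 with these and the replicate block, and -0.23, -0.20, -0.18 and -0.36 with these in the 6 libraries. Without replicate 2 they were -0.33, -0.46, -0.43 and -0.45 with the replicate block, -0.37, -0.57, -0.54 and -0.53 with total library size, and -0.34, -0.54, -0.50 and -0.50 with DESeq2 size factors. PCNA and BUB1B were at -0.11 and -0.15 with total library size, -0.0267 and -0.0554 with no filter, -0.0044 and -0.0367 with 10 counts in every library, -0.0798 and -0.17 with voom, and -0.0136 and -0.0775 with the replicate block. BUB1B was also at -0.0226 with upper quartile factors and -0.0748 with the block in the 6. With 1 library left out, the highest values were 0.24 for PCNA, 0.78 for TOP2A, 0.79 for CENPF, 0.28 for BUB1B and 0.74 for AURKB. AURKB was at -0.10 and -0.01 without TRB_T3 replicate 1 or 3, -0.19 with voom and -0.12 with the block in the 6. Apart from the libraries left out, the cause was not tested.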

Other observations

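The gene groups here were chosen after their values were seen, so their counts describe these libraries and are not tested. Of all tested genes 6.05% were called higher and 4.59% lower with 12 libraries, and 18.5% and 15.2% with 11. All counts in this section stand beside these shares. Cytosolic ribosomal protein genes held 18 falls and no rise among 78 tested with 12 libraries (median log2 fold change -0.74), and 56 falls and no rise with 11 (median -0.52). Reads shared with close copies in the genome, a limit given above for RPL4, were not examined in these genes. Of 13 genes of serine synthesis and the amino acid stress response 6 fell with 12 libraries (median -0.99), and 10 fell and 1 rose with 11 (median -0.66). ASNS, asparagine synthetase, stood at 17.8, 16.4 and 15.4 cpm in EV_Vehicle and 2.93, 3.78 and 2.25 in TRB_T3 (edgeR adjusted p = 6.58e-05), and ATF4, the transcription factor of that response, at 286, 269.9 and 289.8 and 168, 108 and 175 (adjusted p = 0.00884).

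Of 13 genes known from intestinal epithelium some were well expressed and others were not. CDX1 had no count in any library, and GPA33, MUC2, CDH17, TFF3 and CDX2 reached at most 0.817, 1.27, 1.72, 3.25 and 3.80 cpm. HNF4A, a nuclear receptor of liver and gut, stood at 112, 97.7 and 108 cpm in EV_Vehicle and 40.8, 23.2 and 41.7 in TRB_T3, and the galectin LGALS4 at 637, 582 and 656 and 264, 56.1 and 273. Of 10 tested genes of this kind 4 fell and none rose with 12 libraries (median -1.47), and 6 fell and 1 rose with 11 (median -1.07). Among 9 tested Wnt feedback genes 2 rose and 1 fell with 12 libraries, and 3 rose and 1 fell with 11. With so few genes these counts cannot be told apart from the shares of all tested genes. LGR5, a receptor of gut stem cells, stood at 18.5, 18.1 and 16.3 and 83.5, 128 and 86.7 (log2 fold change 2.50, adjusted p = 6.3e-05), while RNF43, which removes Wnt receptors, fell (-0.59, adjusted p = 0.0132).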
